A study of Homo sapiens and Mus musculus with 16 samples.

Results

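Chromatin accessibility was described at 9 genes of interferon response and antigen presentation, B2M, TAP1, TAP2, TAPBP, PSMB8, PSMB9, NLRC5, IRF1 and CIITA, and at their mouse orthologs. Members were all accessible regions that overlapped a gene body with 20 kb added on each side, and a region near more than 1 of the genes was counted once. This gave 70 of 118107 regions in the HPAF-II control list, 64 of 97047 in the HNF4G-KO list, 36 of 68074 in the KPC primary tumor list and 44 of 80843 in the KPC liver mets list. TAP1, TAP2, PSMB8 and PSMB9 lie side by side in the major histocompatibility complex and were treated as 1 cluster. All 9 genes had regions within their windows in every list.

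The series held 16 ATAC-seq samples, 4 replicates in each of 4 groups, and ATAC-seq reads a transposase's access to DNA. HPAF-II is a human pancreatic adenocarcinoma cell line, and its control received Cas9 while its HNF4G-KO cells were a pool of 3 single-cell clones edited with guides against HNF4G, which encodes a nuclear receptor of the HNF4 family. The KPC lines are mouse pancreatic cancer lines taken from a primary tumor and from liver mets, described by the study as matched and isogenic, and no treatment was given to them in the labels. Each group had 1 list of regions, so the lists carried no value per replicate and no test between groups could be made. Each region had a score of unstated scale, which was used here only as a percentile within its own list, 100 being the highest score. Because the lists of a pair differ in length, differences were computed on 3 rankings, within each full list, within lists held to the same length and among shared regions alone, and percentiles are those of the full lists. A region was called control-only, KO-only, tumor-only or mets-only when it shared no base with the other list of its pair. A bulk list cannot tell a site open in fewer cells from a site less open in each cell.

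Class I molecules show peptides from inside a cell to CD8 T cells. PSMB8 and PSMB9 are proteasome subunits that help to cut the peptides, TAP1 and TAP2 form the transporter that carries them into the endoplasmic reticulum, TAPBP (tapasin) holds the empty class I molecule at the transporter, and B2M is the light chain of every class I molecule. Interferon gamma induces IRF1, a transcription factor that binds interferon-stimulated response elements, while NLRC5 and CIITA are the transactivators of class I and class II genes. Tumors that lose parts of this machinery are known to be harder for T cells to see.

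The response elements were legible in the promoters, and they are shown because the start-site regions described here lie over them. RefSeq promoters were matched for 7 of the 9 genes (GRCh38.p14), NLRC5 and CIITA being the genes without an entry. Capitals mark the interferon-stimulated response core GAAANNGAA, the gamma-activated site TTCNNNGAA and the kappaB sequence GGACTTTCC, searched on both strands with overlapping matches kept. Each stretch has 120 bases, reads along its gene and ends no more than 20 bases past a start site.
B2M (GRCh38.p14, chr15:44711327-44711446, plus strand): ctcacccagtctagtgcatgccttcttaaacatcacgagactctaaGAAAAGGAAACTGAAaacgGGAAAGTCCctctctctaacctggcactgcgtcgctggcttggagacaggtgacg
TAP1 (GRCh38.p14, chr6:32853743-32853862, minus strand): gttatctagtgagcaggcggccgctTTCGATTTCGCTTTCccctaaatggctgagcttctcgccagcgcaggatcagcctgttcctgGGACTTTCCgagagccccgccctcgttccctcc
TAP2 (GRCh38.p14, chr6:32838734-32838853, minus strand): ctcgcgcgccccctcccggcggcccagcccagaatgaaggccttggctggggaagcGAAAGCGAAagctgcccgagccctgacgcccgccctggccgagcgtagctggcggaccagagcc
TAPBP (GRCh38.p14, chr6:33314059-33314178, minus strand): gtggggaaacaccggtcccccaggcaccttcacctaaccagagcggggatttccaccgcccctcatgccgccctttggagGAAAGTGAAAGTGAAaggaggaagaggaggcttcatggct
PSMB8 (GRCh38.p14, chr6:32844028-32844147, minus strand): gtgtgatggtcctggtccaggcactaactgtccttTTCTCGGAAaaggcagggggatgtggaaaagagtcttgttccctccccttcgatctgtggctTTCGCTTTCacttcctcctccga
IRF1 (GRCh38.p14, chr5:132490834-132490953, minus strand): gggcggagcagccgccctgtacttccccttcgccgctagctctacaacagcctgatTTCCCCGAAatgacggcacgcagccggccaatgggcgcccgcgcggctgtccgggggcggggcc

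The 7 genes had 9 RefSeq promoters, and the response core was present in 5 of them, 1 each of B2M, TAP1, TAP2, TAPBP and PSMB8, against 8.11% of 35116 RefSeq promoters. In B2M, TAP1 and TAPBP there were overlapping pairs of cores. The IRF1 promoter held a gamma-activated site, a sequence present in 7.66% of promoters, and no response core. Such a site was also in the PSMB8 promoter and in a second TAP1 promoter, not shown, that had no core. The kappaB sequence, added after the promoters had been read, was found in B2M and TAP1 and in 0.370% of promoters. These are matches of letters, not measured binding.

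The mouse regions over the same genes carried like sequences. The following stretches come from mm10 under start-site regions of the primary tumor list, and capitals mark the same 3 motifs.
B2m (mm10, chr2:122147492-122147611, plus strand): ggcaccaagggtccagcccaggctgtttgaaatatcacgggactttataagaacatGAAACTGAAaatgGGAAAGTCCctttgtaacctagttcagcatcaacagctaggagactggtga
Tap1 (mm10, chr17:34187628-34187747, plus strand): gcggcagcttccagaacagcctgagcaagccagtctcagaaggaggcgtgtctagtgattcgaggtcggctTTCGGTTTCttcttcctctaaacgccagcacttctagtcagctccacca
Tap2 (mm10, chr17:34204445-34204564, plus strand): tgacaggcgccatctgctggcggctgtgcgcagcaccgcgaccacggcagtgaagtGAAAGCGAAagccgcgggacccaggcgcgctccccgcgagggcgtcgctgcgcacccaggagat
Tapbp (mm10, chr17:33919537-33919656, plus strand): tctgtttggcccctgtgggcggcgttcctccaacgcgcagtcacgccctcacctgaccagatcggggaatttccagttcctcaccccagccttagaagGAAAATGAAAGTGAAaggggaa
Irf1 (mm10, chr11:53769868-53769987, plus strand): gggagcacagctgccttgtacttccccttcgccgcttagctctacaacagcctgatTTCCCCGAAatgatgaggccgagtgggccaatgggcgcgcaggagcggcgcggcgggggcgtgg

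In B2m both the response core GAAACTGAA and the kappaB sequence GGAAAGTCC had the letters of the human gene. The same held for GAAAGCGAA in Tap2, GAAAGTGAA in Tapbp and TTCCCCGAA in Irf1. Tap1 had a core, TTCGGTTTC, in other letters than either human core, and no kappaB sequence in this stretch.

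Few member regions were particular to a single list. In HPAF-II, 11 of 70 control regions were control-only (15.7%, Wilson 95% interval 9.01 to 26.0), against 25.0% of the whole control list. Of the HNF4G-KO regions 2 of 64 were KO-only (3.13%, 0.861 to 10.7), against 6.76%. In KPC, 1 of 36 tumor regions was tumor-only (2.78%, 0.492 to 14.2), against 8.51%, and 6 of 44 mets regions were mets-only (13.6%, 6.40 to 26.7), against 20.2%. All 4 shares were below that of their whole list, and all 4 intervals reached past it. Whole-list shares weighted to the score deciles of the member regions were nearer to the member shares. They were 19.8% for control-only, 5.96% for KO-only, 6.19% for tumor-only and 17.2% for mets-only. These intervals cover counting error only.

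The single-list regions lay in the lower part of their lists. The 11 control-only regions were at percentiles 19.7 to 48.4 with a median of 31.2, against 17.9 for all control-only regions, both KO-only regions at 5.19 and 13.0, the tumor-only region at 1.76, and the 6 mets-only regions at 11.7 to 46.1 with a median of 24.0, against 19.4. By locus, 8 of the 11 control-only regions were at IRF1, and B2M, TAPBP and NLRC5 had 1 each. Without the IRF1 locus 3 of 45 control regions were control-only (6.67%). Counted by gene, 4 of 9 members had a control-only region, against 67.1% of protein-coding genes with a region nearby, and 5 of 9 had a KO-only region, against 27.6%, because 1 of the 2 KO-only regions lay near 4 members. A tumor-only region was found at 1 of 9 members, against 30.0% of genes, and a mets-only region at 5 of 9, against 52.5%.

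**Figure D1:**
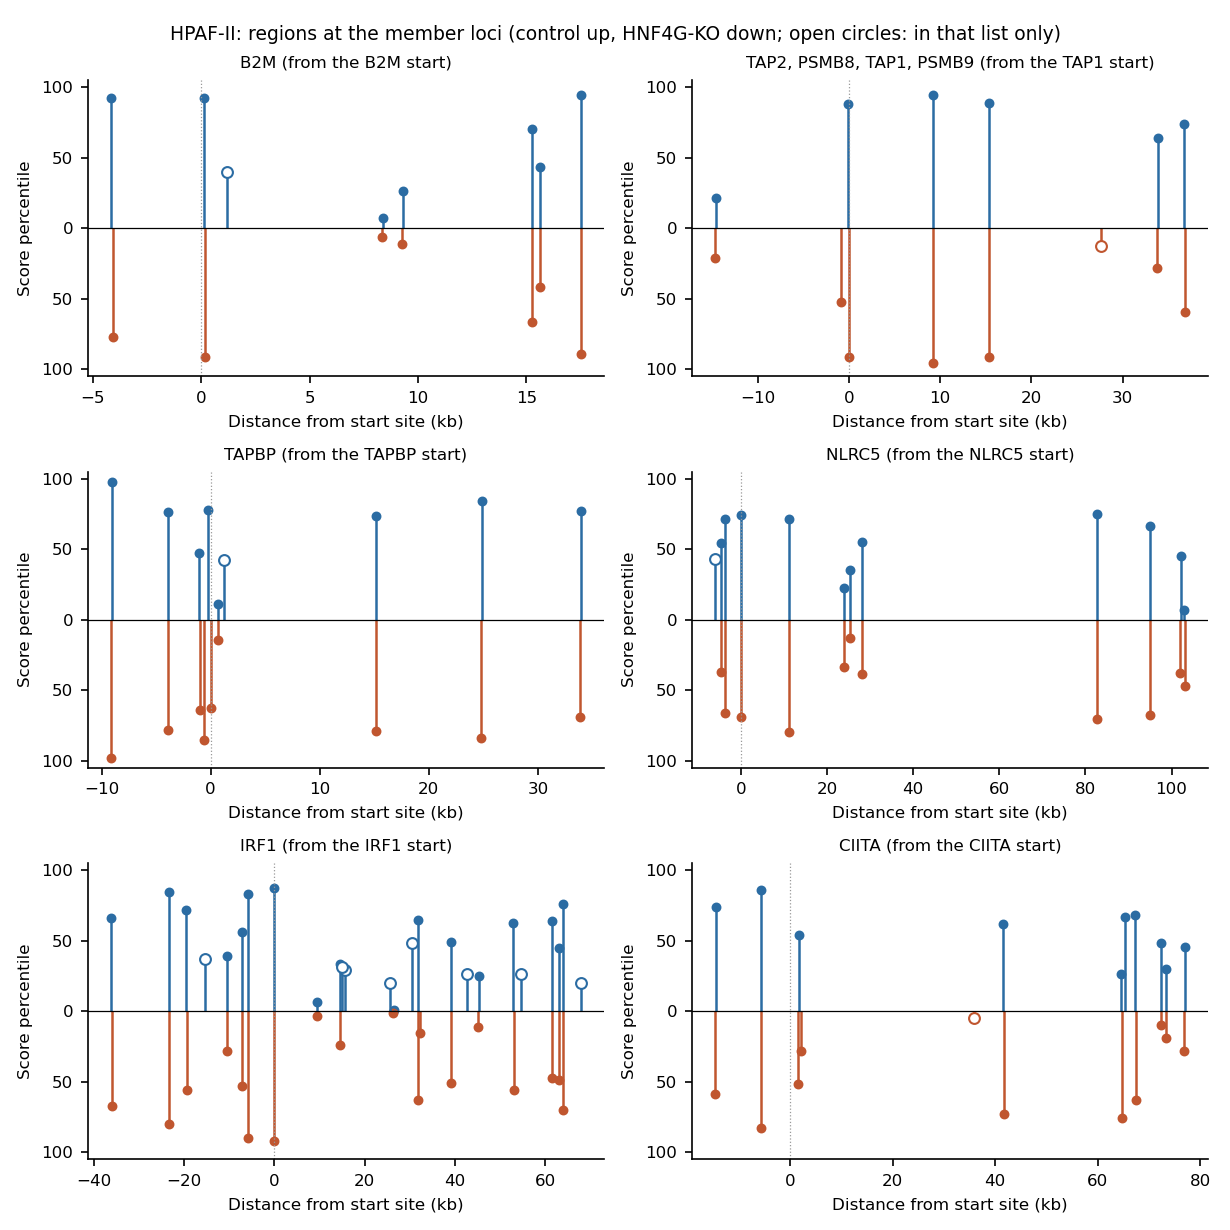
Score percentile of each region (vertical axis, control up and HNF4G-KO down) by the distance of its center from the start site in kb (horizontal axis) at the 6 human loci, with open circles for regions of that list only. The start-site regions stand tall in both lists at B2M, IRF1 and the cluster, and 8 of the 11 open circles of the control list are at IRF1.

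At B2M the start-site region was among the strongest in all 4 lists. It had a percentile of 92.1 in the control list (chr15:44711182-44712156 in hg38, over the start and with its center in an intron) and 91.3 in the HNF4G-KO list. In KPC it was at 94.6 in the tumor list and at 99.1 in the mets list (chr2:122147346-122148455 in mm10). In the mets list it was also split, and the downstream piece of 347 bp was at 17.1. The highest value of any member in KPC was thus that of B2m in liver mets.

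All 7 shared HPAF-II regions of the B2M locus had a lower percentile in HNF4G-KO, as did 70.0% of all shared regions of the control list. Those at PATL2 and TRIM69 were the ones that were lower on every ranking. A region 4.14 kb upstream in an intron of PATL2 was at 91.9 in control and 77.0 in HNF4G-KO. The region at the start of TRIM69, an E3 ligase gene 17.5 kb downstream, was at 94.1 and 89.0. The control-only region (percentile 39.4, 300 bp) lay 1.19 kb downstream of the start in a B2M intron. In KPC all 4 shared regions of the B2m locus had a higher percentile in mets, while 35.1% of all shared regions of the tumor list had a lower one. The intronic region of Trim69 at 14.1 kb was at 17.5 in tumor and 41.3 in mets, and the 2 mets-only regions, both in Patl2 introns, were at 23.8 and 29.7.

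In the cluster the promoters stayed strong in HPAF-II. PSMB8, a catalytic subunit of the immunoproteasome, had its start-site region at 94.4 in control and 95.8 in HNF4G-KO. The TAP2 region was at 88.8 and 91.2. TAP1 and PSMB9, which are transcribed away from each other, shared 1 region at 87.7 in control and 91.4 in HNF4G-KO. That shared region was 2316 bp wide in control (chr6:32852657-32854972, hg38) and 2 pieces of 1253 and 260 bp in HNF4G-KO, the smaller one in an intron of PSMB9 at 52.3. No region of the cluster was control-only, against 25.0% of the whole list.

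The class II end of the cluster differed from these promoters. A region 18.9 kb downstream of the TAP2 start, in an intron of HLA-DOB, was at 63.6 in control and 28.6 in HNF4G-KO (chr6:32819669-32820064). Its neighbor at the HLA-DOB start was at 73.6 and 59.9. HLA-DOB encodes a chain of a class II-like protein that tempers peptide loading. The KO-only region, in a TAP2 exon, was at 13.0.

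The same promoters ranked lower in the mouse lines. The shared Tap1 and Psmb9 region was at 55.4 in tumor and 58.0 in mets (chr17:34187029-34188227 in the tumor list, mm10). At Tap2 a region over a downstream start, the one that carries GAAAGCGAA, was at 25.3 in tumor and 39.3 in mets, and the outermost start had none. Psmb8 had no region at its start in either list. Of the other regions, that in a Tap2 intron 7.28 kb from the start was at 46.3 in tumor and 23.8 in mets, and the single mets-only region lay toward H2-Ob at 24.2. Human and mouse percentiles come from lists of different species and lengths and are given side by side only.

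TAPBP had the lowest start-site value of the class I loading genes in HPAF-II. The control region over its start was at 77.7 (chr6:33313711-33314869, 1159 bp). In HNF4G-KO this became 2 pieces, 1 over the start at 62.9 and 1 to its upstream side at 85.4, so the direction depended on the piece. The piece over the start, which had the longer overlap, was lower on all 3 rankings. The next region upstream, in an exon of ZBTB22, was at 47.2 and 63.8. The control-only region, at a downstream start of TAPBP, was at 41.9. The strongest region of any human member locus lay at the start of DAXX, 9.07 kb upstream of TAPBP, with 97.6 in control and 97.9 in HNF4G-KO.

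In KPC, Tapbp had 8 tumor and 10 mets regions, and none was tumor-only or mets-only. The region at its outermost start was at 68.7 in tumor and 84.3 in mets. The region that holds the response cores printed earlier, 3.62 kb downstream, was at 67.6 and 70.8. At Rgl2 next to it a start-site region in an exon was at 57.7 in tumor and 41.0 in mets while the next, in an intron, was at 17.3 and 43.1, so neighbors differed in opposite directions.

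**Figure D2:**
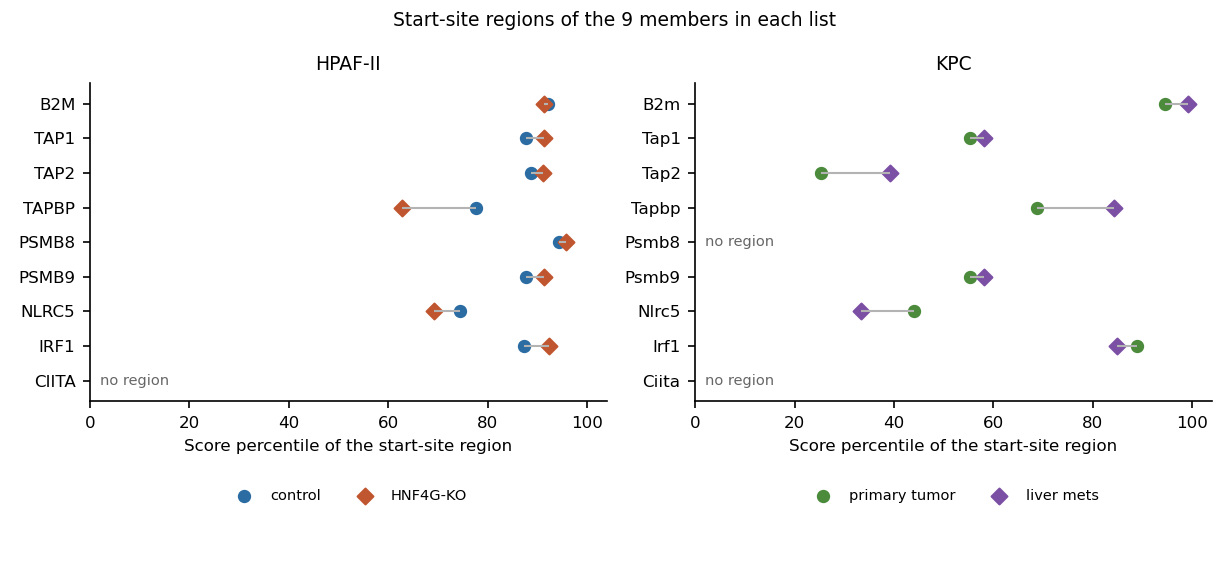
Score percentile (horizontal axis) of the region over the canonical start of each human gene and of the strongest region within 1 kb of an annotated start of each mouse gene, with 1 marker per list and gray lines joining the lists of a pair. B2M is above 90 in all 4 lists, TAP1 and PSMB9 share their markers, and CIITA, Psmb8 and Ciita show no region.

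NLRC5, the class I transactivator, had a middling start-site region. It was at 74.4 in control and 69.2 in HNF4G-KO (chr16:56989159-56989897, hg38). In its introns the regions went both ways, with 71.0 and 79.6 at 11.2 kb, 22.6 and 34.0 at 23.9 kb, and 35.0 and 13.0 at 25.3 kb. Beyond its 3′ end a region at the start of CPNE2 was at 6.99 in control and 47.1 in HNF4G-KO, where both regions were 417 bp wide and overlapped in part. Upstream, the control-only region lay 5.94 kb from the start in an exon of CETP, at 43.2.

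Among control and tumor regions set against their longest-overlapping partner, the largest loss of rank was at mouse Nlrc5. A region in an Nlrc5 intron 22.0 kb from the start was at 79.3 in tumor and 36.5 in mets, and its width was 676 and 360 bp. The start-site region was at 44.0 in tumor and 33.3 in mets. In the other direction, a region 94.1 kb downstream was at 50.6 and 73.9 and another at 97.8 kb at 11.1 and 37.4. A mets-only region at 11.7 lay 24.4 kb from the start.

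IRF1 carried most of the control-only regions. Its annotated body of 68280 bp runs far past its canonical transcript on both sides, and its window held 25 control and 18 HNF4G-KO regions. Of the 25, 8 were control-only (32.0%, 17.2 to 51.6), against 25.0% of the whole list, and no HNF4G-KO region was KO-only. With the body of its canonical transcript (chr5:132481609-132490773) the counts were 4 of 12 (33.3%) and 0 of 8. The 8 regions were 202 to 676 bp wide and all lay in introns of IRF1 or of an overlapping gene, 7 of them on the downstream side of the start. The strongest, at 48.4, was 30.4 kb downstream, and the closest was 15.0 kb from the start at 31.2.

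The IRF1 promoters themselves ranked higher in HNF4G-KO. The start-site region (chr5:132490263-132491438), over the gamma-activated site printed earlier, was at 87.4 in control and 92.3 in HNF4G-KO. A region at an alternative start 5.90 kb upstream was at 82.8 and 90.3. Both differences were positive on all 3 rankings. Other shared regions of the locus went the other way, with 71.6 and 55.7 at 19.6 kb upstream, 84.3 and 79.8 at 23.5 kb upstream, and 63.7 and 47.3 at 61.6 kb downstream. In KPC the Irf1 start-site region was at 88.9 in tumor and 84.9 in mets, the opposite order. The 2 regions in an intron of Gm12216, a predicted gene, were at 69.8 and 42.5 in tumor and at 81.4 and 68.8 in mets. A tumor-only region at 1.76 and a mets-only region at 46.1 lay on opposite sides of the gene.

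CIITA, the class II transactivator, had no region over its canonical start. A region over an annotated start 1.76 kb downstream was at 54.0 in control (chr16:10878439-10879481) and fell into 2 pieces at 51.5 and 28.6 in HNF4G-KO. A region 5.67 kb upstream was at 85.6 and 83.2. The largest value in the other direction, 26.0 in control and 75.9 in HNF4G-KO at DEXI, came with a merger, since the HNF4G-KO region covered that control region and its neighbor at 66.8. Further on, a region in a CLEC16A intron (chr16:10949373-10949679) was at 48.4 in control and 9.66 in HNF4G-KO, and another CLEC16A region at chr16:10953965-10954417 was at 45.6 and 28.0.

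Mouse Ciita had no region at any annotated start in either list. A region in a Ciita exon 30.8 kb from the outermost start was at 15.5 in tumor and 67.7 in mets (chr16:10510641-10511068 in mm10), and its width was 428 and 616 bp. This was the largest gain of rank by the same measure. The strongest region of the locus, at Dexi, was at 91.9 and 96.9. A mets-only region in a Ciita intron was at 23.7.

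**Figure D3:**
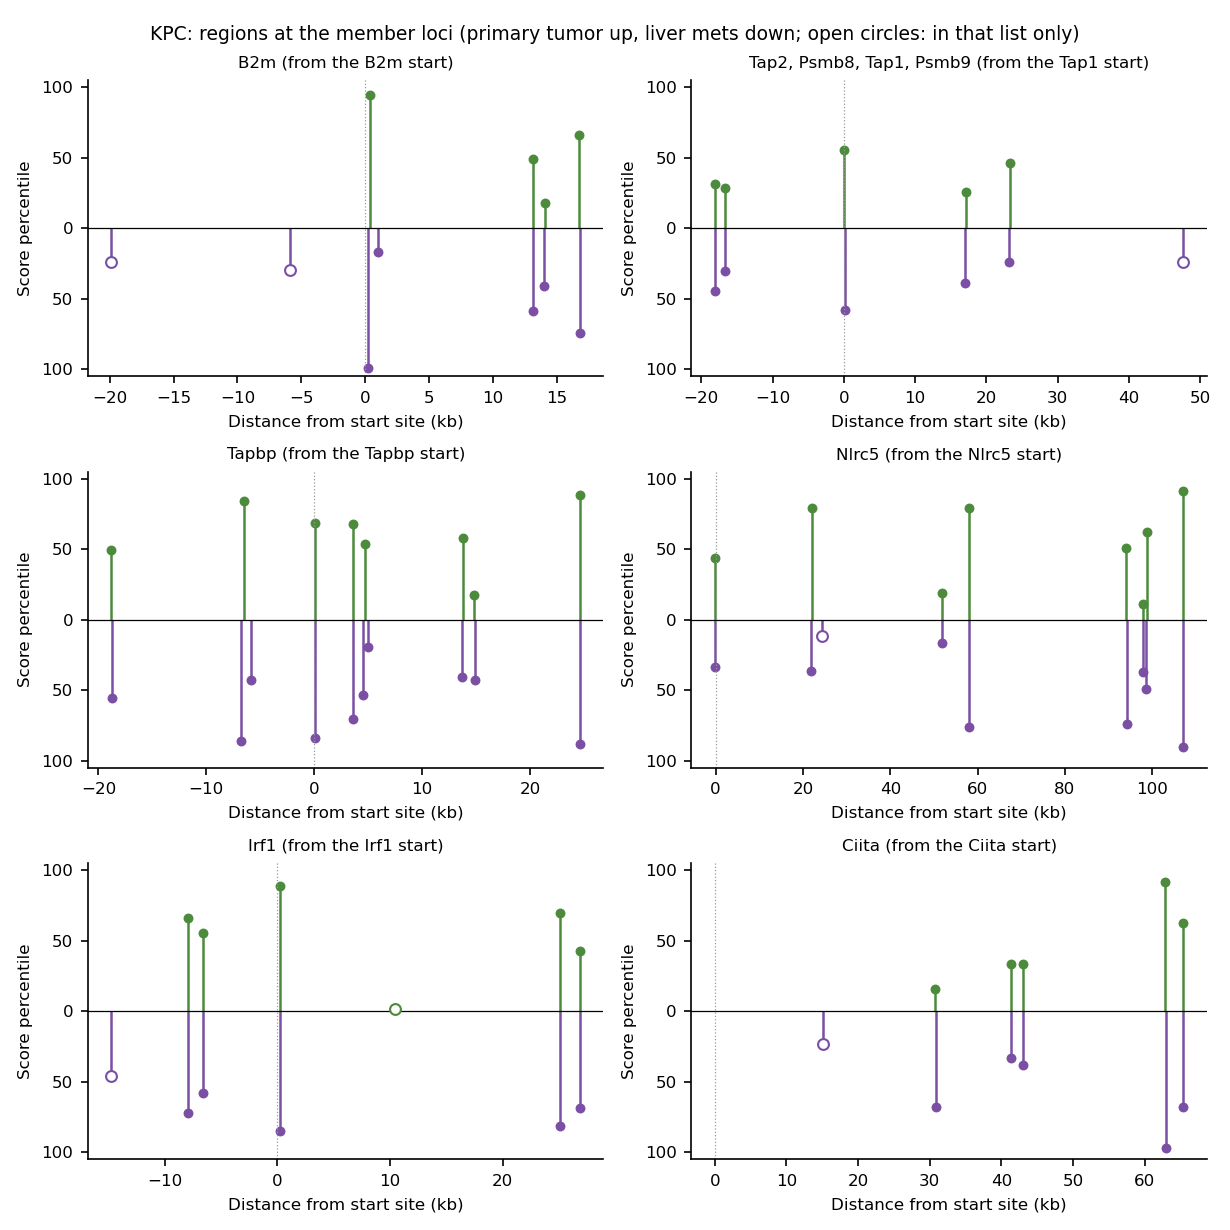
The same plot for the mouse loci, primary tumor up and liver mets down, with distance from the outermost annotated start in kb. At Nlrc5 the bar at 22.0 kb goes from 79.3 in tumor to 36.5 in mets, and at Ciita that at 30.8 kb goes from 15.5 to 67.7.

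In HPAF-II the 59 shared regions had a median change of -2.93 percentile points, HNF4G-KO minus control, against -4.65 for the 88632 shared regions of the list. At least 20 points lower were 3 regions (5.08%), against 14.9% of the list, and at least 20 points higher were 2 (3.39%), against 2.85%. In KPC the 35 shared regions had a median change of 4.55, mets minus tumor, against 3.67 for 62280 regions. At least 20 points lower were 2 (5.71%), against 5.12%, and at least 20 points higher were 6 (17.1%), against 12.9%. These counts are from the full lists, and their balance in KPC depended on the ranking. With lists of the same length, KPC member changes of that size were -54.7, -36.8, -27.8, -23.1, -22.6, 20.4 and 46.1. Among shared regions alone they were -51.5, -26.8, -23.4, 21.5, 23.8 and 49.1. Background shares were not made for those rankings.

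The sign of these medians depended on the ranking. A longer list has more weak regions below a given one. With lists of the same length and among shared regions alone, the list medians became 0.34 and 0.68 in HPAF-II and -0.62 and 0.99 in KPC, and the member medians 2.56 and 2.35 in HPAF-II and -1.85 and -0.33 in KPC. Of the 59 HPAF-II member regions, 22 were higher in HNF4G-KO on every ranking they had, 15 were lower and 22 had no constant sign. Of the 35 KPC regions, 15 were higher in mets, 12 were lower and 8 had no constant sign. The same count was not made over all shared regions of the lists, so these numbers have no background share. Start-site regions of TAP1 with PSMB9, TAP2, PSMB8 and IRF1 were among the 22 higher ones. That of TAPBP was lower against its HNF4G-KO piece over the start, while the other piece ranked higher on the full lists. Those of B2M, NLRC5 and CIITA had no constant sign. In KPC the start-site regions of B2m, Tap2 and the outermost Tapbp start were higher, those of Nlrc5, Irf1 and the innermost Tapbp start region were lower, and those of Tap1 with Psmb9 and of the Tapbp start region between its other start regions had no constant sign.

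Against the start-site regions of all protein-coding genes, member start-site regions ranked differently in the 2 cell systems. Regions over a coding start had a median percentile of 80.6 in control, 80.6 in HNF4G-KO, 70.4 in tumor and 72.8 in mets. The member start-site regions had medians of 85.1 over 10 regions, 91.2 over 9, 61.5 over 8 and 64.4 over 8. They lay above the coding median in both HPAF-II lists and below it in both KPC lists. A single member start-site region was in 1 list only, that at the downstream TAPBP start in control, while 4.94% of coding start-site regions were control-only, 1.77% KO-only, 2.69% tumor-only and 4.23% mets-only.

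**Figure D4:**
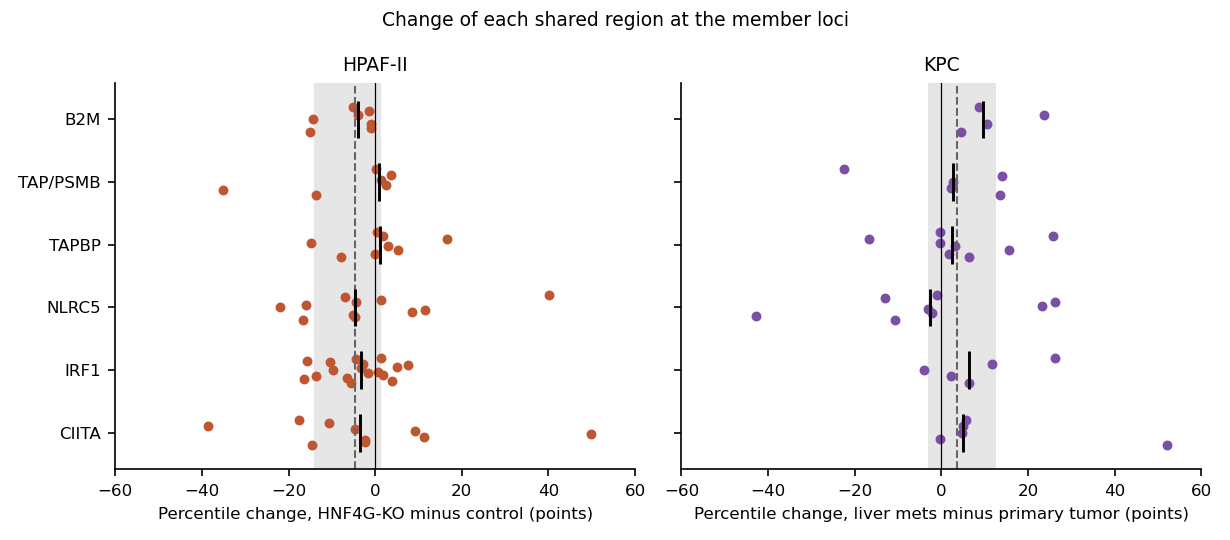
Percentile change of each shared region (horizontal axis, points; second list minus first) by locus, with black bars for the median of the locus, a dashed line for the median of all shared regions and a gray band for their interquartile range. The farthest points are at CIITA and NLRC5 in both pairs and, in HPAF-II, at the TAP/PSMB cluster.

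Consensus sequences were counted in the central 300 bp of each region. The interferon-stimulated response core was in 10 of 70 control regions (14.3%), against 9.52% of the list, and in 13 of 64 HNF4G-KO regions (20.3%), against 9.37%. In KPC it was in 6 of 36 tumor regions (16.7%, list 7.83%) and 6 of 44 mets regions (13.6%, list 8.10%). The AP-1 sequence TGANTCA went the other way, with 22.9% of control regions against 30.6%, 28.1% of HNF4G-KO regions against 31.2%, 16.7% of tumor regions against 36.5% and 15.9% of mets regions against 37.1%. The gamma-activated site was in 5.71%, 6.25%, 5.56% and 4.55% of the member regions of the control, HNF4G-KO, tumor and mets lists, against 8.65%, 8.54%, 8.77% and 9.16% of the whole lists. The kappaB core GGGNNTTCC was in 7, 6, 4 and 3 regions (10%, 9.38%, 11.1% and 6.82%), against 5.86%, 6.0%, 5.0% and 5.13%. The CCAAT box ATTGG, bound by NF-Y at MHC promoters, was in 41.4%, 35.9%, 16.7% and 38.6% of the 4 lists' member regions, against 31.7%, 30.9%, 31.8% and 32.5%. FOXA sequences (TGTTTAC) were in 4, 4, 1 and 1 regions (5.71%, 6.25%, 2.78% and 2.27%), against 6.15%, 6.14%, 5.69% and 6.20%. Windows were centered separately in each list, so a motif can lie inside the window of a region in one list and outside that of its partner, and no test was made.

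The HNF4 sequence CAAAGTCCA was in 2 control, 1 HNF4G-KO, 0 tumor and 1 mets regions (2.86%, 1.56%, 0% and 2.27%), against 1.00%, 0.916%, 0.871% and 0.886% of the lists. A match was present in 1 of the 11 control-only regions, that in CETP upstream of NLRC5. Another was in a shared IRF1 region 10.6 kb upstream of the start, at 39.1 in control and 28.6 in HNF4G-KO, and the mouse match was in the mets-only region of Ciita. These 3 stretches are shown with the sequence in capitals.
CETP exon upstream of NLRC5 (hg38, chr16:56983556-56983675, minus strand): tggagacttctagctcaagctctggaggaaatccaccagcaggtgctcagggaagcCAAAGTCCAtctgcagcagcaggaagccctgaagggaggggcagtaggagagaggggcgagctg
upstream of IRF1 (hg38, chr5:132501434-132501553, minus strand): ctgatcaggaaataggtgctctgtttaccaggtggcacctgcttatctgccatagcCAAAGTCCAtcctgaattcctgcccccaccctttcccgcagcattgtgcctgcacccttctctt
Ciita intron (mm10, chr16:10495168-10495287, minus strand): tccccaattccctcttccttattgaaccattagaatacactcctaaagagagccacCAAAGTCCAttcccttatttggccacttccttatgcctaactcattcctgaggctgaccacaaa

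At wider pathway lists the control-only shares were also nominally below that of the whole list, but every Wilson interval reached past it. The interval with the lowest upper end, at interferon signalling genes, was 12.4 to 26.5. These shares are therefore not separated from the 25.0% of the list. In HPAF-II the control-only share was 21.1% at 6 class I heavy chain genes (8 of 38 regions), 15.9% at 8 genes of peptide processing and loading (7 of 44), 18.4% at 15 interferon signalling genes (21 of 114), 23.1% at 20 interferon-induced genes (27 of 117), 17.4% at 9 class II genes (4 of 23) and 23.3% at 7 genes of the MHC promoter complex (7 of 30), against 25.0% of the list. The KO-only shares were 0 to 8.91%, against 6.76%, and were above it at interferon-induced genes (8.91%) and the promoter complex (7.69%). HLA genes have near-identical copies and differ from the reference between people and cell lines, so reads there may be misplaced, and the part of this was not tested.

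In KPC the mets-only share reached 26.9% at interferon-induced genes (21 of 78 regions, interval 18.3 to 37.7), against 20.2% of the list, and 31.3% at class II genes (5 of 16, 14.2 to 55.6). Both intervals contained the share of the list. At interferon signalling genes the share was 11.5% (13 of 113, 6.85 to 18.7) and at peptide processing genes 6.25% (2 of 32, 1.73 to 20.1). These intervals ended below the share of the list, the second narrowly. At class I heavy chain genes it was 13.6% (3 of 22, 4.75 to 33.3) and at the promoter complex 13.5% (5 of 37, 5.91 to 28.0). All of these intervals cover counting error only. The tumor-only shares were 0 to 15.4%, against 8.51%.

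**Figure D5:**
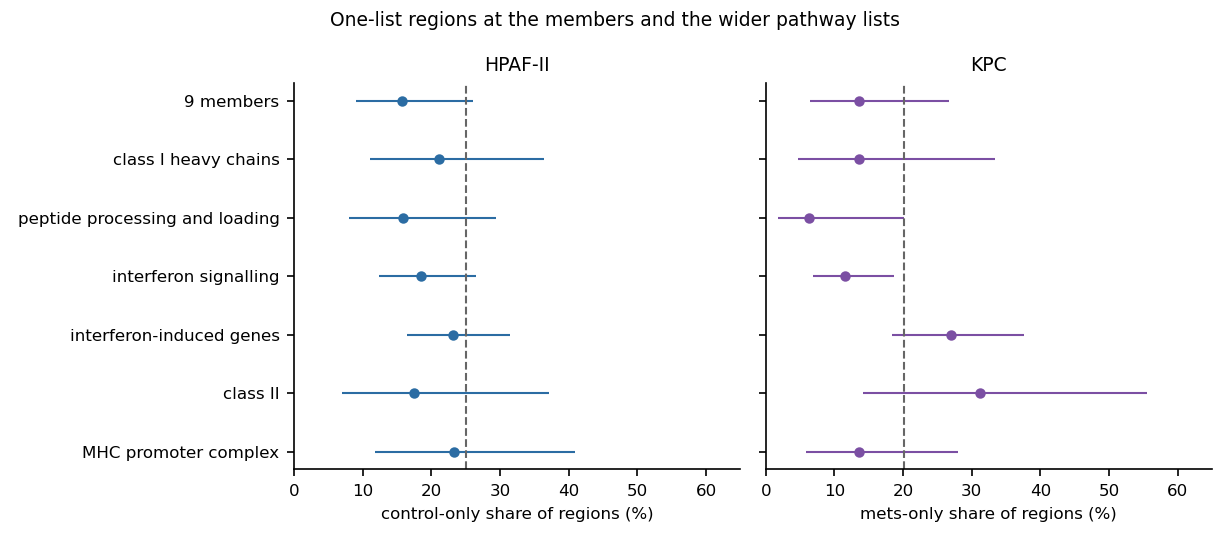
Share of regions in the control list only (HPAF-II) and in the mets list only (KPC), in percent, at the 9 members and 6 wider gene lists, with Wilson 95% intervals (counting error only) and a dashed line at the share of the whole list. The members are at 15.7% and 13.6%, left of both dashed lines. Interferon-induced and class II genes in KPC are right of theirs, with intervals that cross it.

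Single genes of these lists were named by the number of their single-list regions and the change at their start. In HPAF-II, JAK1, the kinase shared by interferon receptors, had 4 control-only and 1 KO-only regions, CANX (calnexin, a folding chaperone) had 4 and 0, and ISG15, a ubiquitin-like protein, had 2 and 2. MX1, OAS2 and NFYC also had 4 single-list regions each, and the tie was settled by alphabetical order. The start-site regions lowest in HNF4G-KO relative to control were those of the class II genes HLA-DRB1, with 48.4 and 13.0, and HLA-DRA, with 44.5 and 21.4. Those highest relative to control were ISG15, with 54.1 and 65.2, and the proteasome activator subunit PSME1, with 83.6 and 92.6.

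In KPC, Ifngr2, a chain of the interferon gamma receptor, had 3 tumor-only and 3 mets-only regions, Irf2 had 4 and 1, and Ifit1, an RNA-binding interferon-induced gene, had 0 and 4. Start-site regions were higher in mets at H2-T23, a nonclassical class I gene, with 34.8 and 57.4, and at the immunoproteasome gene Psmb10, with 47.8 and 68.9. They were lower in mets at Psme1, with 66.5 and 57.4, and at the antiviral gene Mx1, with 76.5 and 69.0. All 8 of these changes kept their sign when the lists of a pair were held to the same length. They had been picked as the largest changes, which makes a kept sign likely. The ranking among shared regions was not made for them.

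Among 10275 genes matched between the species, those closest to TAP1 in their highest percentile within 1 kb of a start over the 4 lists were TGM2 and CDK2AP2 (Euclidean distance 2.76 and 2.95 points). PRKAA2 and SSBP4 were closest to NLRC5 (4.42 and 4.88), and NREP and CHRAC1 to IRF1 (1.76 and 1.77). With 4 lists these are descriptions of similar ranks.

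The lists were checked against cell type markers. All 5 epithelial markers (EPCAM, KRT8, KRT18, KRT19 and CDH1) had a region within 1 kb of a start in every list. Their highest percentiles, in that order, were 94.5, 87.8, 54.2, 57.5 and 74.6 in control. They were 16.1, 31.7, 29.7, 58.1 and 30.4 in tumor and 13.9, 43.2, 39.1, 65.9 and 46.1 in mets. Most of the KPC values were thus in the lower part of their lists. The blood cell markers PTPRC, CD3E and SPI1 had none in any list, and 3, 2, 1 and 1 of the 6 blood cell markers had a region in control, HNF4G-KO, tumor and mets. Of the hepatocyte markers, CYP2E1 had start-site regions in both HPAF-II lists, the highest at 91.9 in control and 92.2 in HNF4G-KO, ALB and APOA2 had none there, and Alb, Apoa2 and Cyp2e1 had none in the KPC lists. Fibroblast markers had regions for 3, 3, 1 and 1 of 4 genes, and endothelial markers for 0, 0, 1 and 1 of 2. The fibroblast marker COL1A1 was at 86.7 in control and 94.1 in HNF4G-KO, and Col1a1 at 75.8 in tumor and 79.8 in mets. Whether the edit of HNF4G was complete could not be read from region lists.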

How the data were processed

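ATAC-seq was done by the authors with the Omni-ATAC protocol and sequenced on a NovaSeq instrument. Per the labels, processing used Bowtie2 2.2.6, MACS2 2.1.1.20160309 and DiffBind with hg38 and mm10. The region threshold, the read shift and how replicates were combined are not given in the sources used here. The authors deposited 1 list per group, whose regions carry a score of unstated scale, and no counts, so depth is unknown. Regions were compared by an overlap of at least 1 bp (pandas 2.3.3) and changes taken against the partner with the longest overlap. Genes were from GENCODE 44 and M21, sequences from RefSeq, hg38 and mm10 (all region ends lay inside their chromosomes). Human start sites were those of canonical transcripts, mouse ones the outermost annotated. Matching was tested on simulated lists. Samples were grouped by title. Named genes were all 9 members, and of 65 pathway genes the 3 per pair with most single-list regions and the 2 with the largest start-site change in each direction, ties by symbol. Members, lists and motifs were chosen with earlier results of these data known.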

Additional observations from a re-analysis of the deposited data

How the results depend on the processing

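No paired analysis was possible because each group has 1 list without replicate columns. Alternatives without the IRF1 locus and with its canonical body were chosen after seeing the data. Alternatives not named here left each value within the interval of the reported one. The control-only share was 6.67% without the IRF1 locus. The KO-only share was 10.9% with lists of equal size, against 12.7% of the list. The tumor-only share was 15.0% in the upper 50% of both lists, above the 8.46% of the list, and 0% without the IRF1 locus. The mets-only share was 30.0% with start-site regions left out, against 24.0% of the list. The HPAF-II median change became 2.56 with lists of equal size and 2.35 among shared regions alone, and the KPC median became -1.85 and -0.33. The control-only share was below that of its list in 10 of 11 settings and above it (16.9% against 15.1%) with lists of equal size. Depth, replicate spread and the score's scale are unknown, which limits all values to ranks.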
